A study of Mus musculus with 9 samples.

Results

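The receptors of the fast transmitters glutamate, GABA and glycine were examined in retinal ganglion cells (RGCs), the output neurons of the retina, after 2 weeks of elevated intraocular pressure (IOP). Members were chosen by gene symbol alone, as all subunits of the AMPA, kainate, delta and NMDA receptors, the metabotropic glutamate receptors other than Grm6, the GABA-A, rho and GABA-B receptors and the glycine receptors. The rule matched 52 of the 23997 symbols listed. Of these, 51 are subunit genes, and the remaining one, Grin1os, is an antisense transcript within the Grin1 locus. The test covered 46 of the 52, among 13043 symbols with a mean of at least 0.5 FPKM. FPKM counts fragments relative to the length of the transcript and the size of the library, so that levels of different genes can be set beside each other. Gabra6 and Gabrp were listed at 0 in all 9 libraries, and Gabre, Gabrq, Gabrr3 and Glra1 did not reach the minimum.

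The study asked how the size of an IOP increase affects gene expression in RGCs. Female and male C57BL/6J mice received an injection into the anterior chamber of the left eye at 6 weeks of age, and the labels give their age as 8 weeks. Control eyes received saline, while Mild IOP and Moderate IOP eyes received microbeads and were divided by their mean IOP increase. RGCs were isolated by immunopanning, in which lectin- and antibody-coated plates first removed microglia, endothelial cells and Thy1-positive amacrine cells and then captured cells with an antibody against Thy1.2. All groups were prepared with actinomycin D, which blocks new transcription during the isolation. The RNA of each group was combined into 1 pool, with fewer retinas in the Moderate IOP pool, and each pool was divided into 3 libraries. The 3 libraries of a group are therefore technical replicates, and every standard deviation, standard error and FDR given here covers technical spread and not the spread between animals. In such bulk RNA, fewer cells of a type and less RNA per cell cannot be told apart.

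RGCs are excited by glutamate released from bipolar cells and inhibited by GABA and glycine released from amacrine cells. Glutamate acts on tetrameric cation channels (AMPA, kainate and NMDA receptors) and on G protein-coupled metabotropic receptors. GABA-A and glycine receptors are pentameric chloride channels assembled from several subunit types, and the alpha subunits set much of their kinetics and pharmacology. GABA-B receptors are heterodimers coupled to G proteins.

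Moderate IOP libraries held less receptor RNA than the libraries of both other groups. Summed over the 52 members, the level was 759, 772 and 797 FPKM in Control, 822, 922 and 877 FPKM under Mild IOP and 671, 637 and 633 FPKM under Moderate IOP. The 3 groups did not overlap. As a share of the summed FPKM of all symbols, the receptors took 0.137 to 0.144% in Control, 0.166 to 0.171% under Mild IOP and 0.0976 to 0.110% under Moderate IOP. The sums were described without a test.

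**Figure D1:**
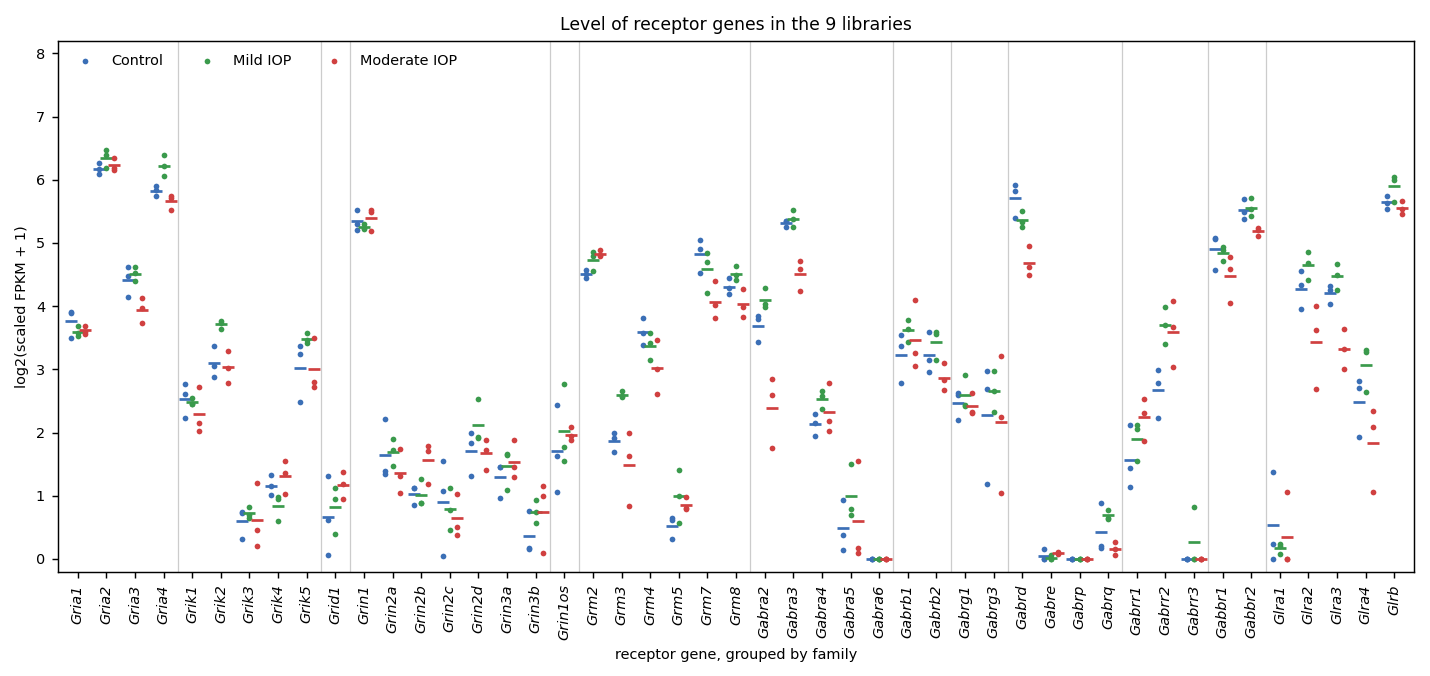
Level of 47 of the 52 receptor genes on the vertical axis, as log2 of the scaled FPKM plus 1, with genes grouped by family along the horizontal axis. Points are the 9 libraries and bars the mean of 3 libraries of a group. Of the genes plotted, Gria2 had the highest mean in Control, and the Moderate IOP libraries lie below all others for Gabra2, Gabra3, Gabrd and Glra3.

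Abundant members in Control included, in descending order, Gria2 at 71.3 ± 4.64 FPKM (SD, n = 3), Gria4 at 55.9 ± 2.94, Gabrd at 52.1 ± 9.71, Glrb at 49.0 ± 3.52 and Gabbr2 at 45.3 ± 5.33. The libraries of Gria4, Gabrd, Glrb and Gabbr2 overlapped with those of a neighbour in this order. Grin1 followed at 39.9 ± 4.67 FPKM and Gabra3 at 39.0 ± 1.43, and these levels also overlapped. The least abundant members that entered the test were Gabra5 at 0.435 ± 0.417 FPKM and Grin3b at 0.311 ± 0.328.

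In Mild IOP, no receptor gene differed from Control at a false discovery rate (FDR) below 0.1, adjusted by Benjamini-Hochberg in limma over all 13043 symbols tested. Among all symbols, 0.399% passed in this comparison. At an unadjusted p below 0.05, 5 receptor genes were higher than Control (among them Gabrr2, Gria4, Grik2 and Grm3) and 0 were lower, whereas 3.15% of all symbols were higher and 7.0% lower at that level. The log2 fold-change was above 0 for 35 of the 46 members and for 50.9% of all symbols. Its median was 0.22 over the members and 0.01 over all symbols.

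In Moderate IOP, 4 receptor genes were lower than Control at an FDR below 0.1 and 0 were higher. Among all symbols tested, 0.889% were lower and 0.951% higher. The 4 genes were Gabra2, Gabra3, Gabrd and Glra3, which encode subunits of the chloride channels gated by GABA and glycine. Each also passed the fold-change of 1.5 applied by the study, as did 0.79% of all symbols with lower levels. At an unadjusted p below 0.05, 10 members were lower and 2 higher, beside 7.26% and 8.03% of all symbols. The median log2 fold-change was −0.10 over the 46 members and 0.00 over all symbols. Leaving out any 1 library lowered the count of 4, to 0 without Control replicate 1 or Control replicate 2, to 2 without Mild IOP replicate 1, Moderate IOP replicate 1 or Moderate IOP replicate 2, and to 3 otherwise. With only the Control and Moderate IOP libraries in the fit, 1 gene passed. Over the 19 alternatives, the log2 fold-change stayed between −1.52 and −0.97 for Gabra2, −0.91 and −0.67 for Gabra3, −1.18 and −0.92 for Gabrd and −1.04 and −0.72 for Glra3.

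Against Mild IOP, 12 receptor genes were lower in Moderate IOP at an FDR below 0.1 and 0 were higher. Of all symbols tested, 3.12% were lower and 7.03% higher. The 12 included Gabra2, Gabra3, Gabrd, Glra2, Glra3, Glra4, Gria3, Gria4, Grik2 and Grm3, and 8 of the 12 passed the fold-change of 1.5, which 2.35% of all symbols passed in this direction. At an unadjusted p below 0.05, 18 members were lower and 0 higher, beside 8.86% and 12.9% of all symbols. The 3 Moderate IOP libraries lay below the 3 Mild IOP libraries for 18 members and above them for 1, compared with 13.0% and 14.5% of all symbols. The median log2 fold-change was −0.36 over the members and −0.02 over all symbols. Over all symbols, 917 were higher and 407 lower, and this split became 731 and 662 without scaling of the libraries and 709 and 690 with upper quartile scaling. The count of lower receptor genes was 15 under both of these scalings. With a single library left out, the count was between 3 and 12. It was 3 without Mild IOP replicate 2, 4 without Mild IOP replicate 1 and 5 without Mild IOP replicate 3. Without Moderate IOP replicate 2 it was 5, and without Moderate IOP replicate 3 it was 6. Gabra2, Gabra3 and Glra3 passed under each of the 19 alternatives run, Gria4 under 18, Glra2 under 17, Gabrd and Grm3 under 13, Grik2 under 12, Glra4 under 11 and Gria3 under 8. The 3 comparisons share libraries in pairs, so a high Mild IOP value enters both the first and the third of them.

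**Figure D2:**
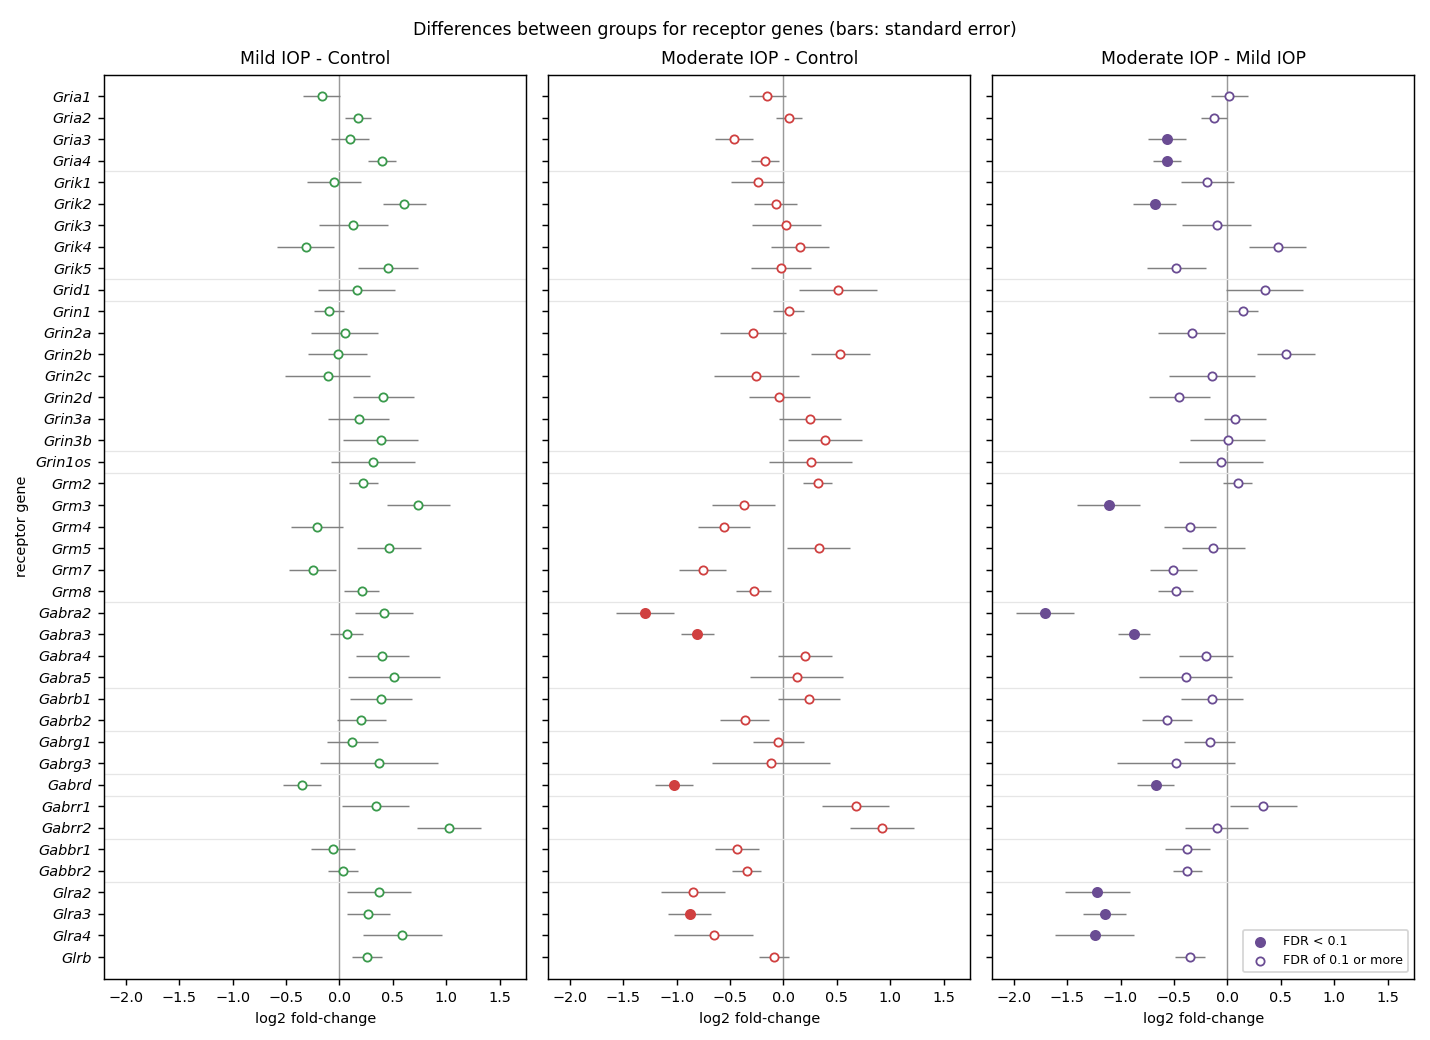
Log2 fold-change of 41 of the 46 receptor genes tested, on the horizontal axis, for Mild IOP minus Control, Moderate IOP minus Control and Moderate IOP minus Mild IOP, with bars for the standard error. Filled points passed an FDR below 0.1, and 0, 4 and 10 points are filled in the 3 panels.

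The AMPA receptors carry fast excitation, and their calcium permeability depends on the Gria2 subunit. Gria2 had 66.9, 76.1 and 70.8 FPKM in the Control libraries, 72.1, 87.6 and 82.7 under Mild IOP and 70.2, 80.0 and 71.9 under Moderate IOP. All 3 groups overlapped for Gria2, and against Control it differed by 0.18 on the log2 scale under Mild IOP and by 0.05 under Moderate IOP, each with a standard error of 0.12. Gria4 had 56.4, 52.7 and 58.5 FPKM in Control, 73.5, 83.4 and 65.4 under Mild IOP and 45.1, 52.5 and 51.4 under Moderate IOP. Its Mild IOP libraries stood above all others and its Moderate IOP libraries just below Control. The difference between Moderate IOP and Mild IOP passed for Gria4 (log2 fold-change −0.56, standard error 0.13, limma FDR = 0.0317), while those against Control did not (FDR = 0.292 for Mild IOP and 0.578 for Moderate IOP).

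Gria3 measured 16.7, 21.2 and 23.5 FPKM in Control, 22.0, 20.0 and 23.5 under Mild IOP and 14.6, 16.5 and 12.4 under Moderate IOP, the lowest 3 values. It was lower in Moderate IOP than in Mild IOP (log2 fold-change −0.56, standard error 0.18, limma FDR = 0.0893). Gria1, which can form calcium-permeable channels without Gria2, lay between 10.3 and 13.9 FPKM in all libraries. Gria2 made up 44.5 ± 2.0% of the summed AMPA subunit FPKM in Control, 43.0 ± 2.4% under Mild IOP and 49.5 ± 0.5% under Moderate IOP, and each Moderate IOP library had a larger share than any other. The ratio of Gria2 to Gria4 was 1.28 ± 0.14 in Control, 1.10 ± 0.15 under Mild IOP and 1.49 ± 0.08 under Moderate IOP.

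The kainate receptors were led by Grik2, a subunit that can form channels on its own, and Grik5, an auxiliary high-affinity subunit. Grik2 had 6.36, 9.34 and 7.32 FPKM in Control, 11.4, 12.2 and 12.7 under Mild IOP and 8.74, 5.90 and 7.11 under Moderate IOP. The Mild IOP libraries lay above the other 6. Moderate IOP was lower than Mild IOP by 0.68 on the log2 scale (standard error 0.20, limma FDR = 0.0789), and the rise over Control in Mild IOP was 0.61 (standard error 0.20) with an FDR of 0.301, which did not pass. Grik5 lay between 4.58 and 9.34 FPKM in Control, between 9.70 and 10.9 under Mild IOP and between 5.56 and 10.3 under Moderate IOP, and none of its differences passed. Grik1, Grik3 and Grik4 had Control means of 4.87, 0.523 and 1.25 FPKM and did not pass in any comparison.

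NMDA receptors need the Grin1 subunit, which pairs with the Grin2 or Grin3 subunits. Grin1 had 45.1, 36.1 and 38.4 FPKM in Control, 36.1, 38.6 and 36.6 under Mild IOP and 43.7, 35.4 and 44.7 under Moderate IOP. The groups overlapped, and 0 of the 7 NMDA subunit genes passed in any comparison. Grin1os, which overlaps Grin1 on the opposite strand, had 1.10 to 5.82 FPKM, and since the library kit does not mark the strand, reads of both cannot be told apart. Grin1 made up 82.5% of the summed NMDA subunit FPKM in each Control library, and it exceeded the sum of the 4 Grin2 genes by 5.97 ± 0.12 times in Control, 5.10 ± 0.96 times under Mild IOP and 6.70 ± 2.02 times under Moderate IOP.

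The Grin2 subunits set the kinetics of the NMDA receptor. Grin2d (2.34 ± 0.77 FPKM) and Grin2a (2.26 ± 1.19 FPKM) were the highest of them in Control, followed by Grin2b at 1.05 ± 0.21 and Grin2c at 1.03 ± 0.96. Grin2b read 1.17, 0.803 and 1.17 FPKM in Control and 1.28, 2.44 and 2.27 in Moderate IOP. These groups did not overlap, but the difference of 0.53 on the log2 scale (standard error 0.28) had an FDR of 0.392 and did not pass. Grid1, a delta receptor gene related to the ionotropic receptors that acts mainly at synaptic contacts, was at or below 1.59 FPKM in each library and passed in no comparison.

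Of the metabotropic glutamate receptors, Grm7 and Grm2 had the highest Control levels. Grm7, a receptor found mainly at presynaptic sites, had 29.0, 32.2 and 22.1 FPKM in Control, 24.8, 27.6 and 17.6 under Mild IOP and 20.0, 13.0 and 15.2 under Moderate IOP. The Moderate IOP values lay below Control, with a log2 fold-change of −0.76 (standard error 0.22) and an FDR of 0.151, which did not pass. Grm2, which inhibits adenylyl cyclase, measured 22.8, 20.8 and 21.8 FPKM in Control, 26.8, 28.0 and 22.4 under Mild IOP and 26.6, 27.2 and 28.5 under Moderate IOP. Its Moderate IOP libraries lay above Control without passing (log2 fold-change 0.32, limma FDR = 0.31), and its share of the family was 24.0 ± 2.2% in Control and 36.1 ± 3.8% in Moderate IOP.

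Grm3, of the same group II receptors as Grm2, was low, with 2.75, 2.23 and 2.97 FPKM in Control, 4.91, 5.31 and 5.00 under Mild IOP and 0.795, 2.10 and 2.99 under Moderate IOP. All Mild IOP libraries lay above the other 6, and Moderate IOP overlapped with Control. Grm3 was lower in Moderate IOP than in Mild IOP by 1.11 on the log2 scale (standard error 0.30, limma FDR = 0.0526), although the lowest of these libraries held only about 14.0 derived fragments. Grm4, Grm5 and Grm8 had Control means of 11.1, 0.449 and 18.8 FPKM, and none of them passed.

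Among the GABA-A alpha subunits, Gabra2 and Gabra3 were lower in Moderate IOP than in both other groups. Gabra2 had 13.3, 12.9 and 9.82 FPKM in the Control libraries, 15.4, 18.5 and 14.8 under Mild IOP and 5.01, 6.21 and 2.36 under Moderate IOP. Mild IOP lay wholly above Control and Moderate IOP wholly below. Moderate IOP was lower than Control by 1.29 on the log2 scale (standard error 0.27, limma FDR = 0.0584) and lower than Mild IOP by 1.71 (standard error 0.27, FDR = 0.00854). In the means, these are decreases of 62.2% and 72.1%. The lowest library rested on 31.6 derived fragments.

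Gabra3 was more abundant than Gabra2 and read 37.3, 39.8 and 39.8 FPKM in Control, 40.8, 45.0 and 37.1 under Mild IOP and 25.3, 23.0 and 17.9 under Moderate IOP. Control and Mild IOP overlapped, and Moderate IOP was lower than both. The log2 fold-change was −0.81 against Control (standard error 0.15, limma FDR = 0.0405) and −0.87 against Mild IOP (standard error 0.15, FDR = 0.0113).

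Gabra4 and Gabra5 were less abundant, with Control means of 3.40 and 0.435 FPKM, and passed in no comparison.

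The beta and gamma subunits complete the common GABA-A receptor. Gabrg1 had 3.57 to 6.54 FPKM and Gabrg3 1.06 to 8.26, and neither passed. Gabrb1 and Gabrb2, beta subunits that carry part of the GABA binding site, did not pass in any comparison either. Gabrb1 measured 9.34, 10.6 and 5.87 FPKM in Control, 11.4, 12.8 and 9.78 under Mild IOP and 16.2, 7.34 and 8.56 under Moderate IOP. Gabrb2 measured 7.84, 11.1 and 10.9 FPKM under Mild IOP and 6.13, 5.38 and 7.61 under Moderate IOP, where its values lay below those of Mild IOP (log2 fold-change −0.57, standard error 0.23, limma FDR = 0.184).

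Gabrd encodes the delta subunit, found in extrasynaptic receptors that carry tonic inhibition. It had 59.7, 55.5 and 41.2 FPKM in Control, 37.2, 39.2 and 44.3 under Mild IOP and 30.1, 23.6 and 21.4 under Moderate IOP. Control and Mild IOP overlapped, and Moderate IOP lay below both. Gabrd was lower than Control by 1.03 on the log2 scale (standard error 0.18, limma FDR = 0.0295), a decrease of 52.0% in the means, and lower than Mild IOP by 0.67 (standard error 0.18, FDR = 0.0507). Control replicate 3 was lower than the other Control libraries.

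The rho subunits form GABA-gated channels of slow kinetics that are known in the retina mainly from bipolar cells. Gabrr2 had 5.87, 6.96 and 3.71 FPKM in Control, 9.52, 12.1 and 14.8 under Mild IOP and 16.0, 7.19 and 11.7 under Moderate IOP. All libraries of both IOP groups lay above Control. Mild IOP exceeded Control by 1.03 on the log2 scale (standard error 0.30, limma FDR = 0.234) and Moderate IOP by 0.92 (standard error 0.30, FDR = 0.182). Neither difference passed, and both were computed against the same Control libraries. By its own test, the study listed the rho2 subunit as higher in both IOP groups, under the symbol Gabbr2. Gabrr1 had 1.20, 3.34 and 1.72 FPKM in Control, 1.92, 3.34 and 3.16 under Mild IOP and 4.78, 2.66 and 3.99 under Moderate IOP. Summed bipolar cell markers, of which Vsx1 was at 0 throughout, reached 122 to 208 FPKM in Control, 113 to 190 under Mild IOP and 201 to 260 under Moderate IOP. Gng13 and Pcp2 made up most of these sums. Of 9 bipolar markers tested, 7 had a log2 fold-change above 0 against Control in each IOP group, with medians of 0.34 for Mild IOP and 0.42 for Moderate IOP, and 0 passed in either. The part of bipolar RNA in the rho values was not tested.

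GABA-B receptors need both Gabbr1, which binds the transmitter, and Gabbr2, which couples to the G protein. Gabbr2 had 44.2, 40.5 and 51.0 FPKM in Control, 45.4, 51.5 and 41.9 under Mild IOP and 36.5, 33.7 and 35.8 under Moderate IOP, the lowest 3 values. Its log2 fold-changes of −0.34 against Control (standard error 0.14, limma FDR = 0.273) and −0.37 against Mild IOP (standard error 0.14, FDR = 0.142) did not pass. Gabbr1 measured 22.8, 33.0 and 32.3 FPKM in Control, 28.6, 29.5 and 25.4 under Mild IOP and 23.0, 15.6 and 26.4 under Moderate IOP. The ratio of Gabbr2 to Gabbr1 was 1.58 ± 0.36, 1.66 ± 0.08 and 1.70 ± 0.41 in the 3 groups.

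Glycine receptors contain alpha subunits and the beta subunit Glrb, which binds the scaffold protein gephyrin. Glra3 had 15.4, 18.1 and 18.9 FPKM in Control, 18.1, 21.5 and 24.5 under Mild IOP and 8.98, 11.5 and 7.06 under Moderate IOP. Moderate IOP did not overlap with the other groups. Glra3 was lower than Control by 0.88 on the log2 scale (standard error 0.20, limma FDR = 0.0752), a call kept in 7 of the 19 alternatives, and lower than Mild IOP by 1.15 (standard error 0.20, FDR = 0.0108).

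Glra2 measured 14.5, 19.1 and 22.5 FPKM in Control, 27.9, 24.7 and 20.4 under Mild IOP and 11.3, 15.0 and 5.46 under Moderate IOP. Control overlapped with both other groups, and only the difference between Moderate IOP and Mild IOP passed (log2 fold-change −1.22, standard error 0.30, limma FDR = 0.0398). Glra4, a rarer alpha subunit, behaved similarly, with 5.52, 6.01 and 2.83 FPKM in Control, 8.91, 5.25 and 8.63 under Mild IOP and 4.09, 3.24 and 1.08 under Moderate IOP. Its difference from Mild IOP was −1.24 (standard error 0.37, limma FDR = 0.0774), with a range from −1.56 to −0.86 over the alternatives and 8.00 derived fragments in the lowest library.

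Glrb had 48.8, 45.6 and 52.6 FPKM in Control, 49.3, 63.2 and 64.7 under Mild IOP and 45.3, 42.8 and 49.9 under Moderate IOP. Moderate IOP overlapped with both other groups, and Glrb did not pass in any comparison (limma FDR = 0.184 against Mild IOP). The ratio of Glrb to the sum of the alpha subunits was 1.37, 1.02 and 1.19 in the Control libraries, 0.896, 1.22 and 1.20 under Mild IOP and 1.86, 1.44 and 3.39 under Moderate IOP. The Moderate IOP ratios were the highest 3. Within the alpha subunits, Glra2 and Glra3 held 44.7 ± 5.3% and 42.1 ± 1.6% in Control and 44.6 ± 6.7% and 41.2 ± 6.0% in Moderate IOP. These shares were computed within a library and do not depend on the scaling between libraries.

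**Figure D3:**
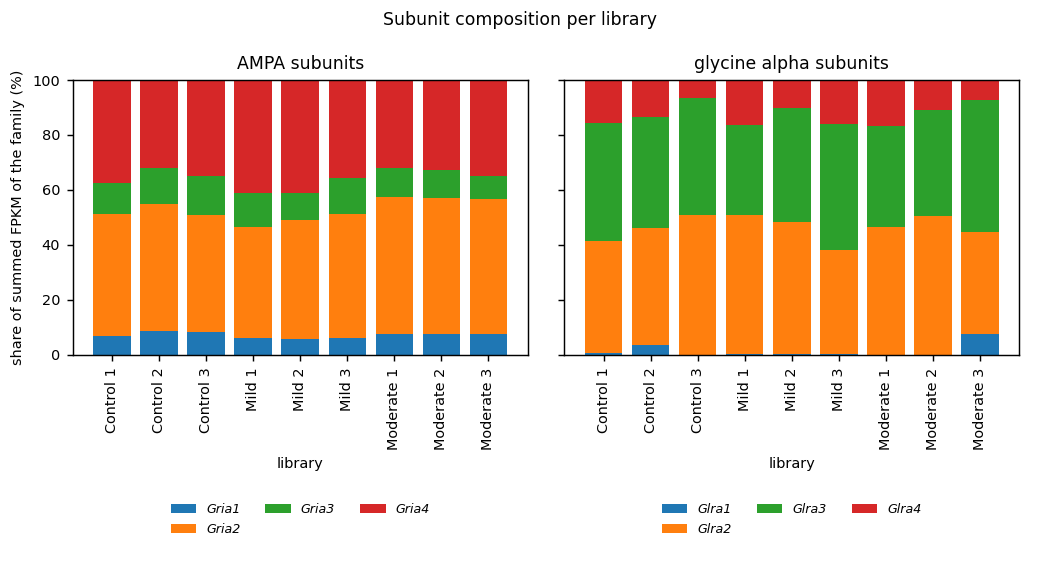
Share of each subunit in the summed FPKM of the AMPA and of the glycine alpha subunits, in percent, for the 9 libraries along the horizontal axis. The Gria2 segment is larger in the 3 Moderate IOP libraries than in the others, whereas the Glra2 and Glra3 shares overlap between groups.

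Across the pentameric chloride channels other than rho, 16 of 21 genes were tested. Between Moderate IOP and Mild IOP, all 16 had a log2 fold-change below 0, compared with 51.5% of all symbols, and 8 of them passed. The 18 ionotropic glutamate receptor genes had 11 fold-changes below 0, with 3 that passed. No test was made of the difference between these families. The 8 and 3 genes, together with Grm3, make up the 12 calls, and the families are read beside the 3.12% of all symbols that were lower in this comparison. Against Control, 15 of the 16 chloride channel genes were above 0 in Mild IOP, beside 50.9% of all symbols. In Moderate IOP, 12 of the 16 were below 0 against Control, where the median log2 fold-change of all symbols was 0.004. Of the 12, 4 passed, beside 0.889% of all symbols.

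The sequences upstream of the more abundant alpha subunit genes that passed with a fold-change of at least 1.5 are given because these genes were lower together in Moderate IOP than in Mild IOP. Each is the 250 bases before the RefSeq start on build GRCm38.p6, read in the direction of transcription, with the nearest listed start where there were several. Gabra2 lies on chr5:71095850-71096099, Gabra3 on chrX:72656808-72657057 and Glra2 on chrX:165327394-165327643, all on the minus strand, and Glra3 lies on chr8:55940168-55940417 on the plus strand. Capitals mark the letters GGGCGG on either strand (CCGCCC when reversed), the letters TATAAA on either strand (TTTATA when reversed) and the palindrome CAGCTG, and no 2 of the marked stretches overlap.
Gabra2: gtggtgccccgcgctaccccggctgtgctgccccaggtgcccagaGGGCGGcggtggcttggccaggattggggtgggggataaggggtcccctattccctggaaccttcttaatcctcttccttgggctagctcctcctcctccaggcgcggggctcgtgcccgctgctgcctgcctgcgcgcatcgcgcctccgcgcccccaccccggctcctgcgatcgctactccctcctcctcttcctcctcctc
Gabra3: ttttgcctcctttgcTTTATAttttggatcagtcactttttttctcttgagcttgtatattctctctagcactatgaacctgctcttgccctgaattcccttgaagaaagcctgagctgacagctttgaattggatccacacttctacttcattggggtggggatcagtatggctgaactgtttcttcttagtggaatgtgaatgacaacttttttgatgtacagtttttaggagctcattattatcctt
Glra2: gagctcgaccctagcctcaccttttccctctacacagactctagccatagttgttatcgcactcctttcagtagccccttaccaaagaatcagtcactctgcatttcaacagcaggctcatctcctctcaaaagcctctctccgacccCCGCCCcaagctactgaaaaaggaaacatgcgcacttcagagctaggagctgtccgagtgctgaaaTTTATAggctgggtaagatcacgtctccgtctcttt
Glra3: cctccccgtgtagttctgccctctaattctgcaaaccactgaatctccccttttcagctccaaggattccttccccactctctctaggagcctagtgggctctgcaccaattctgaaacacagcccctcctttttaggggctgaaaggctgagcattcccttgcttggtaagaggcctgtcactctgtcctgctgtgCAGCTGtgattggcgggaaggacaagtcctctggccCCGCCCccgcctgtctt

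None of the 3 motifs was found in all 4 windows. GGGCGG or its complement was found upstream of Gabra2, Glra2 and Glra3, in 32.7% of all 32851 mouse windows of this length and in 21 of the 43 windows listed for 36 receptor genes. TATAAA or its complement was found for Gabra3 and Glra2, in 12.4% of all windows and in 5 of the 43. CAGCTG was found for Glra3, in 13.0% of all windows and in 2 of the 43. The start used lay 561 bases from the locus start of the expression files for Gabra3, 412 for Glra2, 407 for Glra3 and 0 for Gabra2. These matches describe the letters and are no evidence of binding.

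Many GABA-A genes lie side by side in clusters, and genes of 1 cluster could differ in their values. On mm10 chromosome 5, Gabrg1, Gabra2, Gabra4 and Gabrb1 span 1386 kb (70751047 to 72137244). Gabra2 was the gene that passed there, with a log2 fold-change of −1.29 in Moderate IOP against Control, beside −0.05 for Gabrg1, 0.20 for Gabra4 and 0.24 for Gabrb1. On chromosome X (72257432 to 72842602), Gabra3 lies between Gabre and Gabrq, which were both too low for the test. Gabrr2 and Gabrr1 on chromosome 4 together span 100 kb and did not pass in any comparison.

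**Figure D4:**
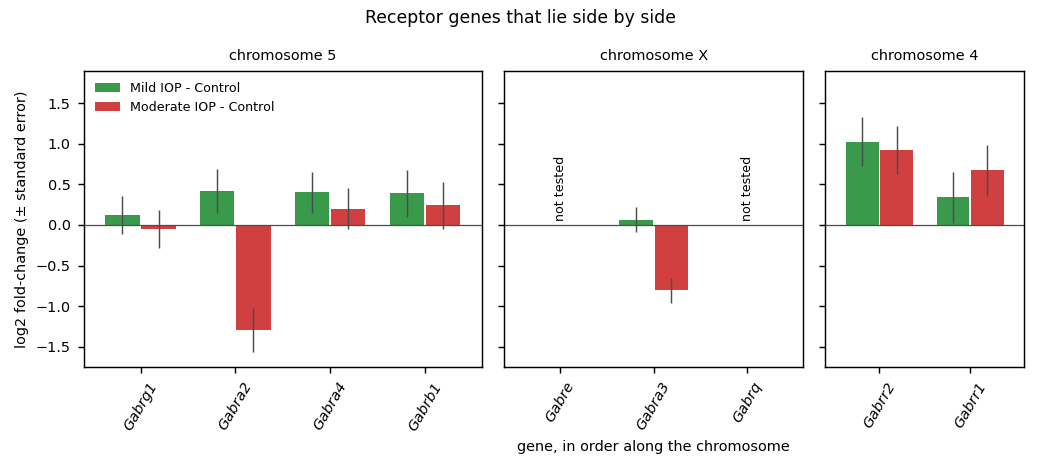
Log2 fold-change against Control, on the vertical axis with standard errors, for receptor genes of 3 clusters in their order along the chromosome. In the chromosome 5 cluster the Moderate IOP bar of Gabra2 reaches −1.29, while its neighbours lie between −0.05 and 0.24.

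The receptor genes are long, and gene length moved with the comparison of Moderate IOP and Mild IOP in all symbols. The loci of the 46 members had a median of 191 kb, compared with 21.4 kb for all symbols tested. The median log2 fold-change of all symbols in this comparison was 0.19 for loci under 10 kb, −0.06 for loci of 10 to 100 kb and −0.14 for loci of 100 kb or more. At 100 kb or more, 5.35% of all symbols were lower and 8 of 28 receptor genes were. Between 10 and 100 kb, 3.42% of all symbols were lower and 4 of 16 receptor genes were. The loci of the 12 ranged from 13.1 kb (Gabrd) to 689 kb (Grik2), with a median of 191 kb. The length classes were set after the values were known, and the part of gene length in the receptor differences was not tested.

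**Figure D5:**
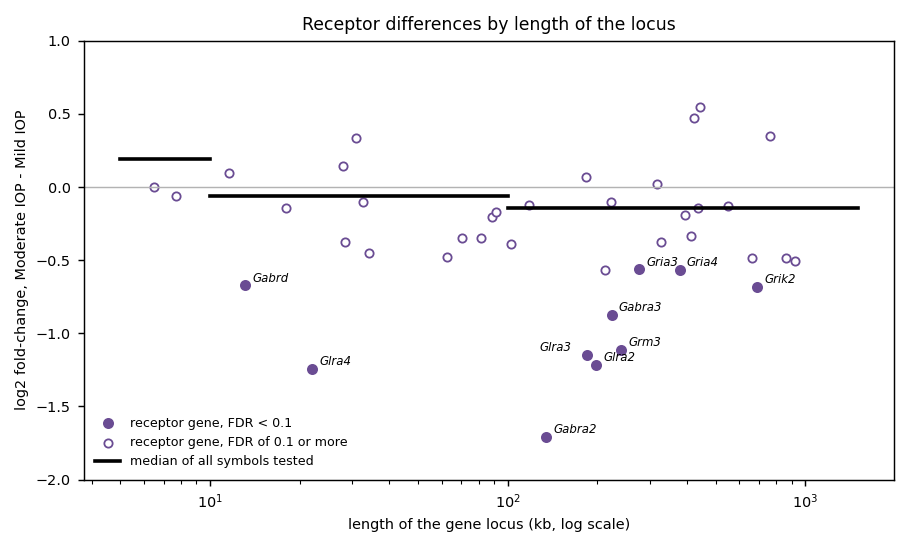
Log2 fold-change of Moderate IOP minus Mild IOP for 41 of the 46 receptor genes tested, on the vertical axis, against the length of the locus in kb on a logarithmic axis. Filled points passed an FDR below 0.1, and black lines give the median of all symbols tested in 3 length classes, which runs from 0.19 to −0.14. All 10 filled points lie below these lines.

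Cell type markers also differed between the groups. All 11 RGC markers had a level above 0 in each library. They summed to 1582 to 1706 FPKM in Control, 1186 to 1469 under Mild IOP and 2505 to 2710 under Moderate IOP. Sncg and Nefl made up most of these sums. Against Control, 9 of the 11 had a log2 fold-change below 0 in Mild IOP. In Moderate IOP, 9 were above 0 against Control, while Pou4f2 and Pou4f3 were below 0. All 11 were above 0 in Moderate IOP against Mild IOP. At an FDR below 0.1, 3 of these markers were higher in Moderate IOP than in Control, beside 0.951% of all symbols. Against Mild IOP, 7 were higher in Moderate IOP, beside 7.03% of all symbols. In both comparisons, 0 were lower. Amacrine markers were also present. They summed to 791 to 843 FPKM in Control, 868 to 931 under Mild IOP and 570 to 628 under Moderate IOP. Gad1 made up most of these sums, and the list as a whole was split, with 4 of 8 markers below 0 and a median log2 fold-change of −0.04 between Moderate IOP and Mild IOP.

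Of 8 amacrine markers tested, 2 were lower in Moderate IOP than in Control (Gad2 and Slc6a9), beside 0.889% of all symbols. Against Mild IOP, 3 were lower in Moderate IOP (Gad1, Gad2 and Slc6a9), beside 3.12% of all symbols. Gad1, a GABA-synthesising enzyme, had 532, 540 and 576 FPKM in Control, 568, 618 and 574 under Mild IOP and 429, 396 and 437 under Moderate IOP. Slc6a9, the glycine transporter of glycinergic amacrine cells, had 118, 111 and 101 FPKM in Control, 149, 148 and 142 under Mild IOP and 46.5, 38.8 and 32.6 under Moderate IOP. By contrast, Tfap2a, an amacrine transcription factor, was higher in each Moderate IOP library than in Control without passing (log2 fold-change 0.49, limma FDR = 0.347), and the related Tfap2b overlapped between all groups, with 49.0 to 70.0 FPKM in Moderate IOP and 52.9 to 62.5 in Control, and Chat, the marker of cholinergic amacrine cells, was at 1.39 FPKM or less in each library. Slc32a1, also on the list, overlapped between all groups, with 6.45 to 14.0 FPKM in Control, 8.08 to 12.2 under Mild IOP and 10.3 to 16.1 under Moderate IOP. Amacrine cells carry GABA and glycine receptors themselves, and the part of amacrine RNA in the receptor differences was not tested.

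The remaining lists covered photoreceptors, horizontal cells and glia. Rod and cone markers summed to 435 to 520 FPKM in Control, 287 to 330 under Mild IOP and 290 to 326 under Moderate IOP. Muller glia and astrocyte markers summed to 37.8 to 42.2, 34.0 to 43.8 and 50.7 to 85.2 FPKM in the same order. Horizontal cell markers, with Lhx1 at 0, summed to 25.1 to 32.5 FPKM in Control, 32.6 to 39.5 under Mild IOP and 34.5 to 44.3 under Moderate IOP. Both IOP groups lay above Control, Calb1 made up most of these sums, and 0 of the 3 horizontal markers tested passed. Microglial and endothelial markers, with Cldn5 at 0, summed to 2.46 to 15.0 FPKM in all libraries.

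Proteins that place, anchor or modulate the receptors formed a list of 57 genes, of which 51 were tested. None passed in Mild IOP against Control, where 5 of the 51 had an unadjusted limma p below 0.05, beside 3.15% of all symbols that were higher and 7.0% that were lower at that level. Dlgap1, a scaffold protein of excitatory synapses, was the 1 gene that passed in Moderate IOP against Control, where 1.84% of all symbols passed. Dlgap1 had 59.0, 48.2 and 52.5 FPKM in Control, 53.3, 53.8 and 49.1 under Mild IOP and 35.8, 27.2 and 28.5 under Moderate IOP, and the Moderate IOP libraries lay below the rest. Its log2 fold-change was −0.79 against Control (standard error 0.14, limma FDR = 0.0369) and −0.76 against Mild IOP (standard error 0.14, FDR = 0.0146). Without Control replicate 1 or Moderate IOP replicate 2, the count against Control was 0.

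Between Moderate IOP and Mild IOP, 5 of the 51 partner genes were higher and 3 lower, with 10.2% of all symbols called in either direction and 7.03% higher. The higher count was 3 without scaling and 3 with upper quartile scaling. Shank1, a scaffold of excitatory synapses, had 11.9, 16.3 and 17.8 FPKM in Control, 9.06, 6.94 and 9.31 under Mild IOP and 20.0, 19.2 and 16.9 under Moderate IOP. It was higher in Moderate IOP than in Mild IOP (log2 fold-change 1.07, standard error 0.19, limma FDR = 0.0124). Control overlapped with Moderate IOP, and Mild IOP lay below Control without passing (log2 fold-change −0.79, limma FDR = 0.193). Nlgn2, the neuroligin of inhibitory synapses, had 1.69, 1.67 and 1.06 FPKM in Control, 1.36, 1.45 and 1.58 under Mild IOP and 5.17, 3.28 and 3.64 under Moderate IOP. Its log2 fold-change against Mild IOP was 1.01 (standard error 0.25, limma FDR = 0.0405). The other higher genes were Cacng2, an AMPA receptor auxiliary subunit, and Gabarap and Gabarapl2, of the GABA-A receptor-associated protein family. Gabarap had means of 128 FPKM in Control, 90.1 under Mild IOP and 133 under Moderate IOP. Those of Gabarapl2 were 430, 346 and 516 FPKM in the same order. No partner gene was called higher in Moderate IOP than in Control.

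The lower partner genes were Dlgap1, Nptx1, a pentraxin that gathers AMPA receptors, and Clptm1, which retains GABA-A receptors inside the cell. Nptx1 had 37.9, 28.7 and 31.4 FPKM in Control, 34.7, 34.2 and 32.8 under Mild IOP and 24.2, 22.8 and 24.3 under Moderate IOP (limma FDR = 0.0644 against Mild IOP). Clptm1 had 82.7, 73.5 and 62.5 FPKM in Control, 81.4, 83.0 and 83.5 under Mild IOP and 48.0, 61.8 and 68.0 under Moderate IOP (limma FDR = 0.0902 against Mild IOP). For Clptm1, Control overlapped with both other groups.

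The precision of single values was limited. In 35 of the 46 members in Control, 28 under Mild IOP and 32 under Moderate IOP, the confidence intervals that accompany the FPKM of the 3 technical replicates did not all overlap, so the replicates differed by more than counting error. Of the 46 members, 14 had under 30 derived fragments in at least 1 library.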

How the data were processed

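RGC libraries of 3 groups (Control, Mild IOP and Moderate IOP, 3 each) were grouped by their labels. By the study's methods, the authors mapped reads with bowtie2 on build mm10 and estimated expression with cufflinks and cuffdiff, and the labels also list FastQC, Trimmomatic and TopHat2. The gene annotation is not given in the sources used here. The deposited values are FPKM per locus, estimated by the authors for each library, with confidence bounds. Read totals were not analysed here, and 14182 to 14914 symbols per library had an FPKM above 0. Fragments behind a value were derived from the upper confidence bound as the square of 2 × FPKM / (upper bound − FPKM), and cover counting error only.

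FPKM were summed per symbol and scaled by median-of-ratios factors. Symbols with a mean of at least 0.5 and no failed estimate were fitted as log2(FPKM + 1) in limma 3.58.1 (R 4.3.3), as group means over 9 libraries with a variance trend. Fold-changes on this scale understate the change of low genes. P-values were adjusted by Benjamini-Hochberg over all 13043 symbols in each comparison, and called at an FDR below 0.1, in some counts together with a fold-change of 1.5. Shares and ratios were computed in Python 3.11.15 (numpy 2.4.6, pandas 2.3.3), and figures were drawn with matplotlib 3.10.9. The fit was tested on simulated data. Named genes were members and partner genes that passed, the 2 highest members of each family, and members without overlap between Moderate IOP and Mild IOP at a fold-change of 1.5. Further members were named after their values were seen. Members, markers and partner lists were chosen with earlier results of these data known. Alternatives changed the pseudocount, filter, scaling, failed estimates, libraries, variance trend and replicate block. Upstream sequences came from RefSeq. Values of 5 members are not reported here singly, though the counts and sums over members include them.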

Additional observations from a re-analysis of the deposited data

How the results depend on the processing

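Counts of receptor genes lower in Moderate IOP depended on the libraries and the fit. Against Control the count was 4, and it became 2 without the filter on low values and 1 with the compared groups only. Leaving out 1 library gave 0 to 3. Against Mild IOP the count was 12, and it became 7 without the filter and 7 without the variance trend, with 3 to 12 when 1 library was left out. In Mild IOP against Control, 0 passed under all 19 alternatives. Partner genes lower than Control numbered 1, with 2 without scaling and 0 to 1 when 1 library was left out, and the higher count of 0 became 1 without the variance trend. Partner genes lower than Mild IOP numbered 3, with 5 without scaling, 6 with upper quartile scaling, 1 without the trend and 1 to 3 when 1 library was left out. Higher ones numbered 5, with 3 without the filter, 3 without scaling, 3 with upper quartile scaling, 2 without the trend and 1 to 5 when 1 library was left out. Over all symbols, 116 were lower and 124 higher in Moderate IOP than in Control, with 29 to 148 and 32 to 158 across the alternatives. Against Mild IOP, 407 were lower and 917 higher, with 91 to 690 and 428 to 958. In Mild IOP, 51 were lower than in Control, with 11 to 172. Receptor genes that passed kept their direction in that comparison under all 19 alternatives. Some differences that did not pass changed sign, such as Gabra3 in Mild IOP against Control, with log2 fold-changes from −0.0047 to 0.15. The cause of these shifts was not tested.

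The replicate number was also fitted as a block. The counts of lower receptor genes were then 3 against Control and 9 against Mild IOP, and 0 passed in Mild IOP. Deviations from the group mean of same-numbered libraries correlated between −0.0051 and 0.044, and 1 of 9 libraries correlated best with its own number in each other group, so the libraries share only a number.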
